A study of Mus musculus with 2 samples.

Results

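The genes described here encode the enzymes that handle reactive oxygen, glutathione and foreign or reactive compounds. They were chosen by gene symbol alone, as glutathione S-transferases, peroxidases and synthesis enzymes, peroxiredoxins, thioredoxins, superoxide dismutases, quinone and aldo-keto reductases, aldehyde and alcohol dehydrogenases, cytochrome P450 enzymes, epoxide hydrolases, flavin monooxygenases, glucuronosyl- and sulfotransferases and methionine sulfoxide reductases, without Cyp51. The rule matched 126 of the 11484 genes on the array that had a symbol, through 133 probes. Of the 126 genes, 5 matched by name only: Txnl4a and Txnl4b, which are splicing factors, Gstcd, which has a transferase-like domain, and the pseudogenes Adh6-ps1 and Cyp2d37-ps. Expression was measured on a 1-colour mouse oligonucleotide array in 2 samples. The generated cells were stem cells obtained with a small molecule, at passage 5 in ES cell medium. The parental cells were cultured in serum medium (fetal bovine serum) and taken at passage 1. Both were of embryonic origin and carried the strain label C57/ICR. The labels name neither the small molecule nor the cell type of the parental cells, and treatment, medium and passage all differ between the samples. The series' design text speaks of 3 replicates, but 1 column of normalised intensities per sample was analysed, so no test between the samples was possible and every difference describes these 2 samples. In such bulk samples, fewer cells of a type and less RNA per cell cannot be told apart.

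Cells keep hydrogen peroxide and lipid peroxides low with peroxidases that draw their electrons from NADPH, through either glutathione or thioredoxin. Foreign and reactive compounds are first oxidised or reduced, by P450 enzymes, dehydrogenases and reductases, and then conjugated to glutathione, glucuronic acid or sulfate. The transcription factor NRF2, held down by KEAP1, induces many of these genes under oxidative stress, and the aryl hydrocarbon receptor induces another part. The same families also make and break down signals, such as retinoic acid, oxysterols and fatty acid epoxides.

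Most of the enzyme families held genes past 2-fold in both directions. The soluble epoxide hydrolase gene Ephx2 was 30.4-fold higher in the generated cells, and the glutathione transferase gene Gsto1 was 20.3-fold lower. A gene was called dim where it lay under the floor, the 25th percentile of the column, in both samples. The floor was at 93.4 in the generated cells and 93.8 in the parental cells. Of the 126 genes, 101 were above the floor in at least 1 sample and 25 were dim. Of the 101, 21 were 2-fold or more higher in the generated cells, 26 were lower and 54 differed by less. That is 20.8% higher and 25.7% lower, where among all 9766 genes above the floor 22.1% were higher and 22.6% lower. The members as a whole were thus close to the background in both directions. At 4-fold or more, 10 were higher and 11 lower, against 7.52% and 10.3% of all genes. With a value under the floor set to the floor, a bounded value, 17 were higher and 22 lower, against 20.5% and 20.8% of all genes. The median log2 difference was 0.01 over the 126 genes and 0.07 over all genes.

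Most of the genes, 120 of 126, were read by 1 probe, which limited the precision. Where a gene had 2 probes above the floor (612 genes), each probe's log2 difference scattered around the mean of its gene with an SD of 1.05, or 2.07-fold. A gene near 2-fold therefore lay within the error of its probe. Just past the 2-fold line were Gstt1, Gstm5 and Cbr4 on the lower side and Aldh16a1 and Cyp4f39 on the higher side, with sizes between 1.04 and 1.15 on the log2 scale. Just short of it were Fmo1, Fmo9, Aldh5a1, Aldh7a1 and Cyp2c55, the last at 914 in the generated cells and 461 in the parental cells. Where 1 of the values was under the floor, only a lower bound on the fold is given, with the floor standing in for the dimmer value. By the mean of a gene's probes this applied to 8 of the 21 higher genes and 7 of the 26 lower genes. Many of these families hold close paralogs, such as the Gstm, Cyp2b and Cyp4f genes, and since probe sequences were not used here, signal from a paralog cannot be told apart from that of the named gene.

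**Figure D1:**
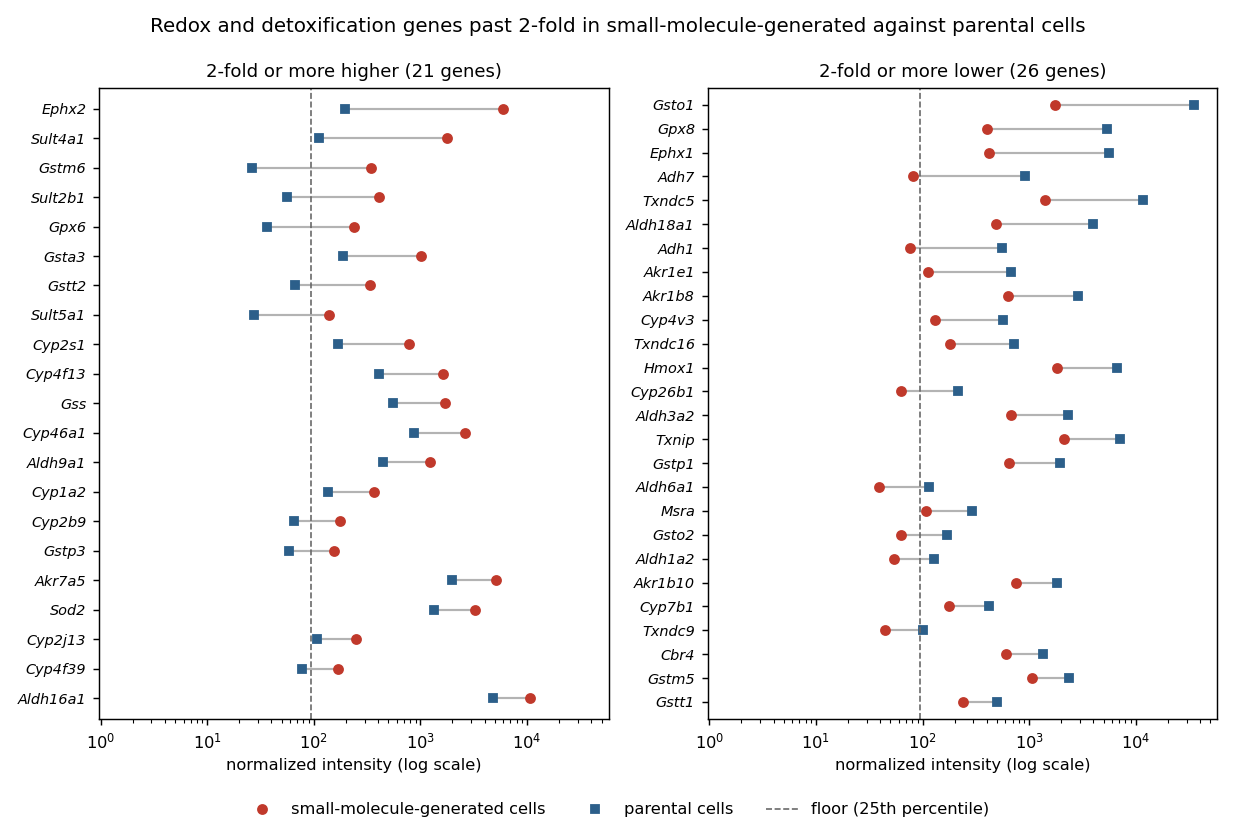
Normalised intensity (log axis) of the 21 genes that were 2-fold or more higher and the 26 that were lower, with small-molecule-generated cells as circles, parental cells as squares and the floor as a dashed line. Ephx2 (5892 against 194) and Gsto1 (1742 against 35424) spanned the widest distances, and several genes crossed the floor.

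Markers of cell types were also read. The labels call the generated cells stem cells, so only the pluripotency markers can be set against them. Of 10 pluripotency markers 9 were measured, and 8 of them were higher in the generated cells, with summed intensities of 124119 in the generated cells and 770 in the parental cells. In the parental cells 7 of the 9 were under the floor. The marker that was not higher by 2-fold was Nanog. It was at 94.7 in the generated cells, barely above the floor, and at 77.7 in the parental cells, under it. Pou5f1 was at 639 in the generated cells and, under the floor, at 37.8 in the parental cells. The largest value in the sum of the generated cells was Esrrb, at 33968. Of 10 fibroblast markers 3 were measured, and all 3 were lower, summing to 351 in the generated cells and 75617 in the parental cells, with Snai2 under the floor in the generated cells. Of 10 macrophage markers 5 were measured and 4 were lower, summing to 695 in the generated cells and 6411 in the parental cells. In the generated cells C1qa, C1qc and Itgam, 3 of these 5, were under the floor. Epithelial markers were higher in 4 of 5 cases, summing to 9970 in the generated cells and 1075 in the parental cells, where 3 of the 5 were under the floor. The 3 measured erythroid markers were higher, or 2 with bounded values, summing to 1549 in the generated cells and 504 in the parental cells. Both measured hepatocyte markers, Apoa1 and Hnf4a, were dim. With only 2 samples, any lower gene goes the same way as the lower fibroblast and macrophage markers. The part of those cells in the differences was not tested.

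Glutathione is built in a pair of steps, by the glutamate-cysteine ligase and by Gss, and is kept reduced by Gsr. The ligase genes Gclc and Gclm were not analysed here. Gss, the glutathione synthetase gene, was at 1716 in the generated cells and 556 in the parental cells, 3.09-fold higher. Gsr, the glutathione reductase gene, was at 596 in the generated cells and 333 in the parental cells, 1.79-fold higher and so under the 2-fold line. The genes of precursor supply were mixed. Slc7a11, the cystine importer, was at 104 in the generated cells and 646 in the parental cells, 6.21-fold lower. Cth, which releases cysteine in the transsulfuration pathway, was at 728 in the generated cells and 4929.7 in the parental cells, 6.77-fold lower. Cbs, the enzyme just before Cth, was at 142 in the generated cells and, under the floor, at 59.3 in the parental cells, at least 1.51-fold higher. Ggct, an enzyme of glutathione turnover, was 4.64-fold higher, at 455 in the generated cells and 98.0 in the parental cells. Over the 14 measured of 20 genes of glutathione transport and turnover, 3 were higher and 4 lower, or 2 and 3 bounded, against 22.1% and 22.6% of all genes, or 20.5% and 20.8% bounded. Abcc5, an exporter of organic anions, was the third higher gene, at 2296 in the generated cells and 712 in the parental cells, 3.23-fold higher. The lower ones also included the neutral amino acid transporter gene Slc1a4, 3.29-fold lower at 2137 in the generated cells and 7030.3 in the parental cells.

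Glutathione peroxidases reduce peroxides at the expense of glutathione, and 6 of the family were measured. Gpx1, the main cytosolic enzyme, was bright in both samples, at 36171 in the generated cells and 20665 in the parental cells, 1.75-fold higher. Gpx4, which reduces lipid peroxides in membranes, was at 239.8 in the generated cells and 135 in the parental cells, 1.78-fold higher, and the secreted Gpx3 was at 4032 in the generated cells and 4637 in the parental cells. These 3 genes lay within 2-fold. Gpx8, a peroxidase of the endoplasmic reticulum (ER), stood apart from them, at 403 in the generated cells and 5359 in the parental cells, 13.3-fold lower. Gpx6, known from olfactory epithelium, was at 238 in the generated cells and, under the floor, at 36.7 in the parental cells, at least 2.54-fold higher. Gpx7, the other ER peroxidase of the family, was dim, at 32.3 in the generated cells and 69.9 in the parental cells.

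Most of the measured genes of the thioredoxin arm lay within 2-fold. Of 8 measured peroxiredoxin and thioredoxin system genes, 7 were within 2-fold, none was higher and 1 was lower. Among all 9766 genes above the floor, 5398 were within 2-fold, 22.1% were higher and 22.6% lower. Txn1, Prdx3, Prdx5 and Prdx6 were not analysed here. Prdx1 and Prdx2 are cytosolic peroxidases, and Prdx4 is the ER peroxidase that feeds disulfides into folding proteins. Prdx1 was at 320.0 in the generated cells and 321 in the parental cells, and Prdx2 was at 15714 in the generated cells and 12204 in the parental cells. Prdx4 was at 8467 in the generated cells and 13376 in the parental cells, 1.58-fold lower. The thioredoxin reductases, which pass electrons from NADPH to thioredoxin, were also close. Txnrd1, the cytosolic enzyme, was at 12749 in the generated cells and 8373 in the parental cells, 1.52-fold higher. The mitochondrial pair Txn2 and Txnrd2 were 1.61-fold and 1.63-fold higher, with Txn2 at 7071 in the generated cells and 4379 in the parental cells. The exception was Txnip, the inhibitor of thioredoxin that also limits glucose uptake, at 2113 in the generated cells and 7141 in the parental cells, 3.38-fold lower.

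Proteins with a thioredoxin domain that work in the ER were lower in part. Txndc5, a disulfide isomerase of the ER, was at 1407 in the generated cells and 11774 in the parental cells, 8.37-fold lower. Txndc16, also in the ER lumen, was 4.01-fold lower, at 180.3 in the generated cells and 723 in the parental cells. Txndc12, a small ER oxidoreductase, differed by less, at 4259 in the generated cells and 6150.3 in the parental cells. Txndc9, a cytosolic cofactor of chaperonin, was at least 1.07-fold lower, with 44.9 in the generated cells and a value just above the floor in the parental cells. The other 5 thioredoxin-domain genes, Txndc2, Txndc8, Txndc17, Txnl4a and Txnl4b, were within 2-fold. Grouped by compartment, a grouping made after the values were seen, the 6 measured ER lumen proteins (Gpx7, Gpx8, Prdx4, Txndc5, Txndc12 and Txndc16) had 3 lower, none higher and 1 dim, with log2 differences between -3.73 and -0.53, where 22.6% of all genes were lower and 22.1% higher.

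Superoxide dismutases turn superoxide into hydrogen peroxide, and methionine sulfoxide reductases repair oxidised methionine. Sod2, the mitochondrial dismutase, was at 3255 in the generated cells and 1331 in the parental cells, 2.45-fold higher. Sod3, the extracellular one, was at 404 in the generated cells and 719.9 in the parental cells, 1.78-fold lower and under the 2-fold line. Sod1 and Cat were not analysed here. Msra, which repairs one stereoisomer of methionine sulfoxide, was at 107 in the generated cells and 289.7 in the parental cells, 2.71-fold lower, while Msrb1 and Msrb2, which repair the other, were within 2-fold. The genes for selenoproteins among the members, a grouping made after the values were seen, were Gpx1, Gpx3, Gpx4, Txnrd1, Txnrd2, Txnrd3 and Msrb1. All 7 were within 2-fold, with log2 differences from -0.58 to 0.83. By comparison, 5398 of all 9766 genes above the floor were within 2-fold. Some selenoproteins outside these families passed 2-fold. Selenos, an ER membrane protein of the degradation pathway for misfolded proteins, was at 238 in the generated cells and 3762 in the parental cells, 15.8-fold lower. Selenop, the secreted selenium carrier, and the ER proteins Selenom and Selenok were 4.92-fold, 5.12-fold and 3.39-fold lower. Selenow was 2.54-fold higher, at 10989.9 in the generated cells and 4322 in the parental cells. In the list on selenoprotein synthesis that held them, 10 of 13 genes were measured, 1 was higher and 4 were lower (22.1% and 22.6% of all genes). Those past 2-fold were the selenoproteins just named. The other 5 measured genes, Sepsecs, Secisbp2, Eefsec, Pstk and Scly, which are not selenoproteins, were within 2-fold.

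Heme oxygenase 1 breaks down heme and is a classic NRF2 target. Hmox1 was at 1831 in the generated cells and 6653 in the parental cells, 3.63-fold lower, while its constitutive paralog Hmox2 was at 4552 in the generated cells and 5818 in the parental cells. The 2 probes of Nqo2 disagreed. One read 8431 in the generated cells and 20975 in the parental cells, lower in the generated cells, and the other read 2040.1 in the generated cells and 979 in the parental cells, higher there. The direction of this quinone reductase gene was therefore not settled. Nqo1 was not analysed here. Of the 31 genes of an NRF2 target list 20 were measured, 1 was higher and 7 were lower, where 22.1% of all genes were higher and 22.6% lower. The median log2 difference of the list was 0.20. The lower ones were the members Hmox1, Gstp1 and Ephx1 and, outside the families, Slc7a11, the sulfiredoxin gene Srxn1 (2.50-fold lower, 804 in the generated cells and 2009.9 in the parental cells), Ugdh (4.48-fold lower), which makes UDP-glucuronic acid, and the malic enzyme gene Me1. The higher one was Gsta3. Among 8 measured regulators, Keap1 was at 2591 in the generated cells and 1977 in the parental cells and the repressor gene Bach1 was at 465 in the generated cells and 493 in the parental cells, both within 2-fold. The NRF2 gene itself, Nfe2l2, was not analysed here. The 3 regulators that were lower were Bach2, Maff and Rbx1, a subunit of the ubiquitin ligase that KEAP1 joins, at 787 in the generated cells and 3291 in the parental cells.

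**Figure D2:**
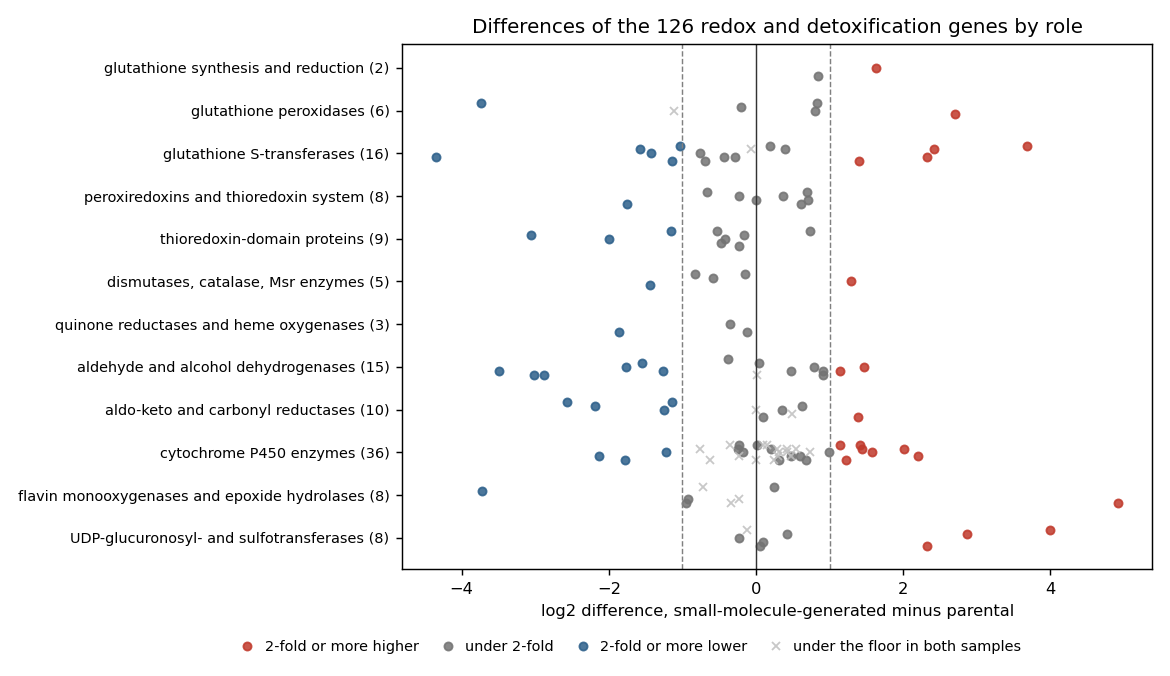
Log2 difference (small-molecule-generated minus parental) of each of the 126 genes, by role with the number of genes in brackets, with dashed lines at 2-fold. The peroxiredoxin and thioredoxin system lay almost wholly within the lines, whereas transferases, dehydrogenases and epoxide hydrolases spread to both sides.

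Glutathione S-transferases couple glutathione to reactive compounds, and their genes lie in clusters by class. Of 16 measured, 4 were higher, 5 were lower and 1 was dim, against 22.1% higher and 22.6% lower among all genes. With bounded values 3 were higher and 4 lower, against 20.5% and 20.8% of all genes, which is close to the background. Gsto1, an omega class enzyme that reduces dehydroascorbate, was at 1742 in the generated cells and 35424 in the parental cells, 20.3-fold lower. Its neighbour Gsto2 was at 62.3 in the generated cells and 168 in the parental cells, at least 1.80-fold lower. The pi class split. Gstp1 was at 654 in the generated cells and 1944 in the parental cells, 2.97-fold lower, and Gstp3 was at 156 in the generated cells and 59.0 in the parental cells, at least 1.66-fold higher. In the theta class, Gstt1 was 2.06-fold lower, with 242 in the generated cells and 498 in the parental cells. Gstt2, 1 gene further along, was at least 3.57-fold higher, with 335 in the generated cells and 67.1 in the parental cells. The mu class cluster held Gstm6, at 341 in the generated cells and 26.4 in the parental cells and at least 3.63-fold higher, beside Gstm5, at 1073 in the generated cells and 2368 in the parental cells and 2.21-fold lower. In the same class, Gstm1 (at 99.2 in the generated cells and 75.8 in the parental cells) and Gstm4 were within 2-fold and Gstm7 was dim. Gsta3, an alpha class enzyme, was at 1003 in the generated cells and 188 in the parental cells, 5.32-fold higher. Gstk1, Gstt3 and Gstz1 were within 2-fold.

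The bases before the start of 5 of these genes are shown because the omega pair was lower together, the pi pair went apart, and Gsta3 held the core of an antioxidant response element. Gsto2 and Gstp3 passed 2-fold only through a value under the floor. The core was not particular to Gsta3, as given below. Each run is the 250 bases before the annotated start, 5′ to 3′ on the strand of the gene, from RefSeq (GRCm38.p6). For Gsto2, which has 2 annotated starts, it is the one farther upstream. Capitals mark the core of the antioxidant response element bound by NRF2, TGACNNNGC, or of the xenobiotic response element bound by the aryl hydrocarbon receptor, GCGTG, on either strand.
Gsto1 (chr19:47854723-47854972, + strand): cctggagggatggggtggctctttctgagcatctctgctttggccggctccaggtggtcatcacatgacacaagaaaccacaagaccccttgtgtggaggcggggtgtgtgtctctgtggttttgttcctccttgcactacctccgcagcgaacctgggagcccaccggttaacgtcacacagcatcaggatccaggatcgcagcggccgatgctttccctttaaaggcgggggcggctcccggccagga
Gsto2 (chr19:47865295-47865544, + strand): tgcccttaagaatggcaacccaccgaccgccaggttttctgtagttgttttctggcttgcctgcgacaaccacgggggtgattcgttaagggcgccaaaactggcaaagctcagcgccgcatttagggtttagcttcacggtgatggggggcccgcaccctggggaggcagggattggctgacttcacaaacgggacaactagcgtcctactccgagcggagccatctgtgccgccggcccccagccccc
Gstp1 (chr19:4037913-4038162, - strand): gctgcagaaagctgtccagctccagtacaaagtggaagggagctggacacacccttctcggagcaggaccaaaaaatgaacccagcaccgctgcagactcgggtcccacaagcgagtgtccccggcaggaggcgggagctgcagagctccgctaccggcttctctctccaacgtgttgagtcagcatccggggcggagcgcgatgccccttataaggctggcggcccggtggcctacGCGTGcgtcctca
Gstp3 (chr19:4059448-4059697, - strand): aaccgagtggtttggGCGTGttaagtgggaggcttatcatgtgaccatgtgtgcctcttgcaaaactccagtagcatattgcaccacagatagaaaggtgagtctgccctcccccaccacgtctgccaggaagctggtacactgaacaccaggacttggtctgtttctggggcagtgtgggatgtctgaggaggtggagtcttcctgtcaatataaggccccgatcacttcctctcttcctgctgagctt
Gsta3 (chr1:21240335-21240584, + strand): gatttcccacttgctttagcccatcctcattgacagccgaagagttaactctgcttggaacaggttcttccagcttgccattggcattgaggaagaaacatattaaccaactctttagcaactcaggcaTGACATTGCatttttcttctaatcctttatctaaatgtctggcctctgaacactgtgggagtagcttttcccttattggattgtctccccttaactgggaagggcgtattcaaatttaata
The window of Gstp1 held 18 CpG dinucleotides and that of Gstp3 held 4, and the omega pair held 12 in Gsto1 and 16 in Gsto2. Gsta3 held 2 CpG and 1 antioxidant core. Promoter windows were found for 105 of the 126 genes, 135 windows in all. The antioxidant core was in 2 of 22 windows of higher genes (9.09%) and 3 of 27 of lower genes (11.1%), against 10.2% of all 32851 windows. The higher genes with it were Gsta3 and Aldh9a1, and the lower ones were Gstm5, Aldh1a2 and Txndc5. The xenobiotic core was in 9 of 22 (40.9%) and 11 of 27 (40.7%), against 28.2%, so windows of higher and lower genes held either motif about as often. In windows of genes within 2-fold, the antioxidant core was in 8.33% and the xenobiotic core in 30.0%. For dim genes these were 11.5% and 15.4%. Windows and not genes were counted, and some genes had several. The median number of CpG was 6 in windows of higher genes and 12 in those of lower genes, against 6 in all windows. It was 7 for genes within 2-fold and 3 for dim genes. A match of letters is a description and not a binding site.

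Over all families, each member was paired with the next member along its chromosome. In 23 such pairs the genes shared a family name and had at most 2 other protein-coding genes between them. In 3 pairs both genes were lower (Gsto1 with Gsto2, Adh7 with Adh1, and Akr1b8 with Akr1b10), in 2 pairs 1 was higher and 1 lower (Gstp1 with Gstp3 and Gstt1 with Gstt2), and in no pair were both higher. In 9 pairs 1 gene passed 2-fold, and in 9 neither did. With bounded values Gsto2 (at least 1.80-fold lower) and Gstp3 (at least 1.66-fold higher) fell short of 2-fold, so their pairs drop out of these counts. Such pairs were not counted over all genes, so the numbers have no background to be read against. Pairs with another member between them were not counted, such as Gstm5 (lower) and Gstm6 (higher), or Cyp2s1 and Cyp2b9 (both higher).

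Aldehyde dehydrogenases oxidise aldehydes from lipids, amino acids and retinal, and alcohol dehydrogenases supply retinal and other aldehydes. Of 15 such genes 2 were higher and 6 lower, against 22.1% and 22.6% of all genes. With bounded values 2 were higher and 4 lower, against 20.5% and 20.8% of all genes. Adh7 and Adh1, neighbouring genes whose enzymes oxidise retinol and ethanol, were lower together. Adh7 was at 81.2 in the generated cells and 912 in the parental cells, at least 9.76-fold lower, and Adh1 was at 75.8 in the generated cells and 559.7 in the parental cells, at least 5.99-fold lower. Aldh18a1, which makes the precursor of proline, was at 486 in the generated cells and 3952 in the parental cells, 8.13-fold lower. Aldh4a1, which acts in the breakdown of proline, was within 2-fold, at 599 in the generated cells and 783 in the parental cells. Aldh3a2, the fatty aldehyde dehydrogenase, was 3.40-fold lower, at 678 in the generated cells and 2307 in the parental cells. Aldh6a1 of valine breakdown, read by 2 probes that were both lower, had 39.0 in the generated cells and 115 in the parental cells, at least 1.23-fold lower. Higher were Aldh9a1 of carnitine synthesis and Aldh16a1, an atypical member. Aldh9a1 had 2 probes that were both higher and averaged 1227 in the generated cells and 443 in the parental cells, 2.77-fold higher. Aldh16a1 was at 10648 in the generated cells and 4842 in the parental cells, 2.20-fold higher. Aldh2, the mitochondrial enzyme that clears acetaldehyde, was bright in both, at 30034 in the generated cells and 17431 in the parental cells, 1.72-fold higher, and Aldh7a1 of lysine breakdown was 1.88-fold higher. Aldh3a1, which the aryl hydrocarbon receptor induces, stayed near the floor, at 105 in the generated cells and 102 in the parental cells. Of 11 members of the mitochondrial matrix, a grouping made after the values were seen, 1 was higher (Sod2) and 3 were lower (Aldh6a1, Aldh18a1 and Cbr4). The other 7 were within 2-fold. Among all genes 22.1% were higher and 22.6% lower.

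Enzymes of retinoic acid metabolism were measured in part. Aldh1a2, which makes retinoic acid in the embryo, was at 53.9 in the generated cells and 129 in the parental cells, at least 1.38-fold lower. Cyp26b1, which degrades it, was at 63.1 in the generated cells and 216 in the parental cells, at least 2.31-fold lower, and Cyp26c1 was dim. Rdh11, a retinal reductase gene, was within 2-fold, at 631 in the generated cells and 719.9 in the parental cells. Over the whole list of retinoic acid metabolism and signalling 11 of 20 genes were measured, 1 was higher and 6 lower, or 5 bounded, against 22.1% higher and 22.6% lower among all genes, or 20.8% lower bounded. The binding protein genes Crabp1 and Crabp2 were 6.11-fold and 2.48-fold lower, with Crabp1 at 7081 in the generated cells and 43241 in the parental cells. The receptor gene Rara was the higher one, at 3025 in the generated cells and 906 in the parental cells, 3.34-fold higher.

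Aldo-keto and carbonyl reductases turn aldehydes and ketones into alcohols. Of 10 measured, 1 was higher, 4 were lower and 2 were dim, where 22.1% of all genes were higher and 22.6% lower. Akr1b8 and its neighbour Akr1b10 are aldose reductase-like genes. Akr1b8 was at 631 in the generated cells and 2873 in the parental cells, 4.56-fold lower, and Akr1b10 was at 759 in the generated cells and 1812 in the parental cells, 2.39-fold lower. Akr1e1, a reductase of anhydrofructose, was 5.95-fold lower, with 112 in the generated cells and 669 in the parental cells. Cbr4, a mitochondrial carbonyl reductase, was at 609.9 in the generated cells and 1349 in the parental cells, 2.21-fold lower, while Cbr1 and Cbr3 were within 2-fold, Cbr1 at 397 in the generated cells and 311 in the parental cells. Akr7a5, a reductase of aflatoxin aldehyde and succinic semialdehyde, was the higher one, at 5114 in the generated cells and 1961 in the parental cells, 2.61-fold higher.

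Epoxide hydrolases went both ways, and with the flavin monooxygenases they covered log2 differences from -3.72 to 4.92. Ephx2, which opens the epoxides that P450 enzymes make from fatty acids, was at 5892 in the generated cells and 194 in the parental cells, 30.4-fold higher. Ephx1, the microsomal enzyme for epoxides of foreign compounds, was at 422 in the generated cells and 5574 in the parental cells, 13.2-fold lower. Ephx3 was within 2-fold, Ephx4 was dim, and of the 4 flavin monooxygenase genes Fmo2 and Fmo4 were dim and Fmo1 and Fmo9 were within 2-fold.

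Cytochrome P450 genes made up the largest family, with 36 measured, and 16 of them were dim. Of the 20 above the floor, 7 were higher and 3 lower, or 5 and 3 bounded, against 22.1% and 22.6% of all genes. Cyp2s1 was at 787 in the generated cells and 170.4 in the parental cells, 4.61-fold higher, and Cyp4f13, of a subfamily that oxidises fatty acids and eicosanoids, was 4.04-fold higher, at 1642 in the generated cells and 406 in the parental cells. Cyp46a1, which clears cholesterol from the brain as an oxysterol, was at 2618 in the generated cells and 875 in the parental cells, 2.99-fold higher. Cyp7b1, which breaks down oxysterols, was 2.34-fold lower, at 179 in the generated cells and 419 in the parental cells. Cyp4v3, a fatty acid hydroxylase, was 4.37-fold lower, at 129.6 in the generated cells and 567 in the parental cells. Cyp1a2, an enzyme of liver that the aryl hydrocarbon receptor induces, was at 368 in the generated cells and 136 in the parental cells, 2.70-fold higher. The receptor gene Ahr went the other way, at 232 in the generated cells and 2175 in the parental cells, 9.37-fold lower, while its partner Arnt was at 181 in the generated cells and 256 in the parental cells. Cyp2j13, Cyp2b9 and Cyp4f39 were also higher, by 2.33-fold, at least 1.88-fold and at least 1.81-fold. Cyp2b9 was at 176 in the generated cells and 65.9 in the parental cells, and it and Cyp4f39 were under the floor in the parental cells. Among 6 measured genes of the aryl hydrocarbon receptor list 1 was higher and 1 lower, against 22.1% and 22.6% of all genes. Cytochrome b5, an electron donor to P450 enzymes, was lower in both forms, Cyb5a by 3.37-fold and Cyb5b by 2.62-fold, with Cyb5a at 1108 in the generated cells and 3736 in the parental cells. They belong to a list named for xenobiotic receptors and P450 reductases, in which 6 of 11 genes were measured. These were Cyb5a, Cyb5b, Fdx1 and the retinoid X receptor genes Rxra, Rxrb and Rxrg, so no P450 reductase gene was among them. None of the 6 was higher, against 22.1% of all genes. Cyb5a, Cyb5b and Rxra (2.96-fold) were the 3 lower genes, against 22.6% of all genes, and Rxrg was dim.

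Of 8 measured genes of sulfation and glucuronidation 3 were higher, or 2 bounded, none was lower, 4 were within 2-fold and 1 was dim. Among all genes 22.1% were higher, or 20.5% bounded, and 22.6% lower. The 3 higher genes were sulfotransferases. Sult4a1, a sulfotransferase-like gene of neurons, was read by 2 probes. The brighter one was at 4042 in the generated cells and 210 in the parental cells, and the dimmer one at 790.1 in the generated cells and 59.7 in the parental cells. Both were higher. The parental value of the dimmer one lay under the floor, and with the floor in its place the mean was at least 12.7-fold higher. Sult2b1, which sulfates cholesterol, was at 409 in the generated cells and 55.9 in the parental cells, at least 4.36-fold higher. Sult5a1 was at 138 in the generated cells and 27.6 in the parental cells, at least 1.47-fold higher. Sult1c2, Sult2a8, Sult6b1 and Ugt2b1 differed by less than 2-fold and Ugt8a was dim.

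The surroundings of these enzymes differed in the same 2 samples. NADPH, the electron source of both arms, comes in part from the pentose phosphate pathway. Its genes Pgd, Taldo1 and Tkt were 1.81-fold, 1.49-fold and 1.91-fold higher, all within 2-fold, with Tkt at 47481 in the generated cells and 24909.8 in the parental cells. Of 13 measured NADPH genes 1 was higher and 2 were lower, against 22.1% and 22.6% of all genes. Mthfd1 of folate metabolism was 4.37-fold higher, at 6851 in the generated cells and 1569 in the parental cells. The lower ones were Mthfd2l, a mitochondrial enzyme of the same pathway, by 7.71-fold, and Me1, the cytosolic malic enzyme, by 5.15-fold. Sources of superoxide and peroxide were mostly lower, 6 of 8 measured, or 5 bounded, against 22.6% of all genes lower, or 20.8% bounded. Nox4, an NADPH oxidase of mesenchymal cells, was at 41.3 in the generated cells and 377 in the parental cells, at least 4.03-fold lower. Its partner Cyba was 3.15-fold lower, at 1865 in the generated cells and 5875 in the parental cells, and Maoa, the monoamine oxidase gene, was 3.30-fold lower. Duox2 was the higher gene, at least 1.71-fold higher. Cyba and Ncf1, a lower gene at 75.8 in the generated cells and 187 in the parental cells, are also subunits of the phagocyte oxidase, and macrophage markers were lower beside them, whose part was not tested.

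Genes of metals and heme were measured for 9 of 10, with 1 higher and 2 lower, against 22.1% and 22.6% of all genes. The iron exporter gene Slc40a1 was at 161 in the generated cells and 3431 in the parental cells, 21.3-fold lower. Biliverdin reductase acts on the product of heme oxygenase, and Blvra was 2.41-fold lower, at 1575 in the generated cells and 3799.8 in the parental cells, while Blvrb was 1.91-fold higher and within 2-fold. The metallothionein gene Mt2 was 3.28-fold higher, at 29197 in the generated cells and 8908 in the parental cells, and Mt1 was at 63615 in the generated cells and 50245 in the parental cells. Of 3 measured glutaredoxins and sulfiredoxin, Glrx5 was 2.95-fold lower, at 2074 in the generated cells and 6122 in the parental cells, and Glrx3 was 1.81-fold higher and within 2-fold.

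**Figure D3:**
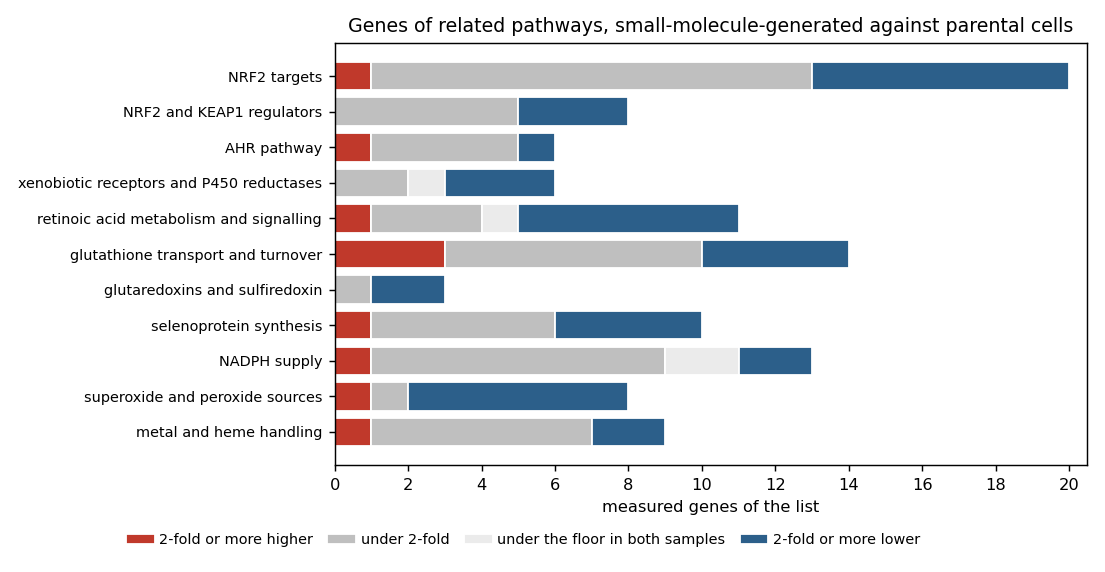
Number of measured genes per related list that were 2-fold or more higher, within 2-fold, under the floor in both samples, or 2-fold or more lower in small-molecule-generated against parental cells. Sources of superoxide and peroxide had 6 of 8 genes lower, and NRF2 targets 7 of 20.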

How the data were processed

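RNA was amplified, coupled to Cy5 and hybridised to a Phalanx OneArray v2 for the whole mouse genome, per the labels' protocols. The authors deposited normalised intensities on a linear scale, 1 column per sample, from 16 to 65494 in the generated cells and from 15 to 65495 in the parental cells. Which scanner, background correction, normalisation or probe filter was used is not given in these sources. Both columns had nearly equal medians (305 and 304), so a difference in total signal would not be seen. All 13989 values of each column were multiples of 1/18 within 0.001, and a column may hold 1 array or an average over several.

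Of 13989 probes 12380 had a symbol in the platform annotation, none had several and 1609 had none. Bringing symbols up to date through RefSeq (GRCm38.p6, used for names, neighbours and promoter sequences) changed none of the members' symbols. Intensities were brought to log2 and probes averaged per gene (Python 3.11.15, pandas 2.3.3), and the difference is generated minus parental. The floor was the 25th percentile of a column. With 1 sample per group no p-value was computed, and genes were counted by size beside all genes. The number of arrays limits the precision. The computation was tested on simulated data. Their noise was set well below the probe SD of 1.05, so that test checks the code and not the precision of a fold.

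Members, role groups and lists were chosen with earlier results of these data known. Named were up to 6 members each way per role group past 2-fold, a list of well-known members, members whose probes disagreed, those close to the 2-fold line, and up to 3 related genes each way per list with some regulators. The compartment groups and promoters were picked after the values were seen. Alternatives were median, quantile and lowess (span 0.3) centring, the brightest probe, an offset of 50, updated symbols, bounded values, other filters and a 4-fold rule. Centring by class of probe identifier and leaving out the 5 members matched by name only were added after seeing the data.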

Additional observations from a re-analysis of the deposited data

How the results depend on the processing

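No paired analysis was possible because each group had 1 sample. Counts of members past 2-fold ranged from 17 to 21 higher and from 21 to 28 lower under median, quantile and lowess centring, the brightest probe, an offset of 50, updated symbols, bounded values, no filter, centring by probe class and omission of the 5 members matched by name only. Requiring a gene above the floor in both samples left 13 higher (and 19 lower), which follows from fewer genes counted (76), and a 4-fold rule left 10 higher and 11 lower, by its construction. A floor at the median left 15 higher and 20 lower of 65 genes, against 25.4% and 25.6% of all genes. That floor moved the median log2 difference of the members to -0.16 over the 65 genes left. The median was near 0 and changed sign with centring, so no direction is drawn from it. Among the 101 members above the floor, no gene past 2-fold changed direction under the 9 alternatives run on single genes. These alternatives could hardly have reversed such a gene, so no conclusion on robustness is drawn. Updating symbols and omitting the members matched by name only left the values of the other genes unchanged. For the 120 members with 1 probe the brightest probe was the only one. Centring shifted genes by far less than 2-fold, and an offset or a floor mainly shrinks a difference. Nqo2 moved to -1.31 with its brightest probe alone. The depth limit of an array is its floor: 25 members had no measurable difference, and 15 folds of gene means are lower bounds, as is that of Sult4a1, whose dimmer probe was under the floor in 1 sample.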

Other observations

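Probe agreement could be read in 6 members with more than 1 probe. In Sult4a1, Aldh9a1, Aldh6a1 and Cyp2c23 all probes had the same sign. Nqo2 and Txnl4a, whose 3 probes gave log2 differences of -1.09, -0.09 and 0.70, did not.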
